A study of Bos taurus with 12 samples.

Results

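The comparison described here is that of cultured endothelium under a positive spatial gradient of wall shear stress with endothelium under a negative one. It rests on 6 of the 12 arrays of the study, the 3 titled as positive gradient and the 3 titled as negative gradient, chosen by their titles alone. Bovine aortic endothelial cells at passage 15 were grown on glass for 5 days in DMEM with 10% fetal bovine serum and 1% penicillin/streptomycin. They were kept for 24 h in medium with 5% serum, 1% of the antibiotics and 8% Dextran 70, and were then held for 24 h in a flow loop. The other 6 arrays come from cells treated alike under uniform stress, 3 at a baseline of 3.5 Pa and 3 at a high level of 28.4 Pa. The local stress in the gradient chambers is not stated, so an effect of the sign of the gradient and one of the stress reached in each chamber cannot be told apart. Whether the replicates were separate cultures is not stated, so p-values measure only the spread between these samples.

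Wall shear stress is the drag of flowing blood on the vessel lining. In a positive gradient it rises along the flow and in a negative one it falls, as happens where vessels narrow, widen or branch. Endothelial cells sense this drag through junctional complexes, integrins, ion channels and the cytoskeleton. They answer with changes in transcription factors such as KLF4, in vasodilator and anticoagulant genes, in adhesion molecules that recruit leukocytes, in matrix and in the cell cycle. The series title asks whether both signs of gradient act differently on endothelial gene expression.

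Signal is given as log2 values, so that a difference of 1 is a 2-fold change. The arrays carried 24016 probe sets besides controls, and 4726 of them had 1 gene symbol, for 3977 genes. Array medians lay between 5.65 and 5.71. The 13 measured endothelial markers had a summed signal (log2 of the sum) of 14.09 to 14.21 under the negative and 14.10 to 14.17 under the positive gradient. Arrays with the same number in their titles deviated together, so that the gradients are also compared within numbers 1, 2 and 3, here called pairs. The array titled High WSS replicate 3 stood apart from its group. Its closest array was positive gradient replicate 3, at a root mean square distance of 0.197, the smallest among 66 array pairs, while the other high-stress arrays lay 0.442 and 0.441 away. It enters no paired comparison of the gradients, and most results that use it are given with its pair shown apart or left out. Among the controls, the 9 probe sets of transcripts added at hybridization averaged 10.08, 9.87 and 10.03 on the negative and 10.46, 10.13 and 10.52 on the positive arrays. The difference of 0.37 gave p = 0.1 in an exact permutation test (two-sided), which is the minimum for 3 arrays against 3 (0.56 after Benjamini-Hochberg adjustment over 7 control measures). The part of this difference in the results below was not tested. The EF1A measure was −2.16 to −1.54 on gradient and −1.42 to −1.04 on uniform arrays, with High WSS replicate 3 apart at −2.03. For GAPDH these values were 0.04 to 0.34, 0.59 to 0.70 and 0.09, and for PPIB 0.79 to 1.08, 1.43 to 1.53 and 0.94. ACTB and EIF4E did not separate gradient from uniform arrays. How these measures bear on the comparison with uniform flow was not tested.

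Under the positive gradient, signals were lower for several chemokines and the adhesion molecule VCAM1, for some matrix and contractile genes and for several growth-arrest genes and lipid carriers. They were higher for genes of DNA replication and mitosis, for the protein C receptor PROCR and for a set of early-response genes. How many of these differences pass a test depends on the pairing. With all 12 arrays and no block, limma called 0 of 24016 probe sets (0%) at an adjusted p under 0.05, although 1247 had an unadjusted p under 0.05. With the replicate number as a block it called 6, which is 0.025%, with 3 in either direction (0.0125% each), and 3 of 3977 named genes, all lower (0.0754%). In the fit of the 6 gradient arrays with the number as a block, here the paired fit, it called 560 (2.33%), 250 higher (1.04%) and 310 lower (1.29%) under the positive gradient. Of the 3977 named genes 252 were called, or 6.34%, with 113 higher (2.84%) and 139 lower (3.5%). These shares are the background for the counts of called list members below. Both count each gene by its brightest probe set, so that a dimmer probe set of an uncalled gene can be called. The paired fit has 2 residual degrees of freedom and borrows 12.4 from the spread of all probe sets; with no borrowing it called 0, with 1661 at an unadjusted p under 0.05. Below, "called" refers to the paired fit, the p-values are its adjusted p-values from limma, and its alternatives are the 9 that keep the 6 arrays or 2 of their pairs and borrow variance (1 pair left out, other variance models, centred arrays or fewer probe sets).

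The pairs differed in how far they moved. Across probe sets the SD of the difference was 0.237 in pair 1, 0.286 in pair 2 and 0.348 in pair 3, and 37, 144 and 358 probe sets differed by more than 1. The groups did not overlap for 10.7% of all probe sets, 5.14% with the positive arrays above and 5.52% with them below. A share of 33.8% of all probe sets had 1 sign in all 3 pairs, and among named genes this was 52.1%. The 560 called probe sets kept their sign when any 1 pair was left out, which their selection from the same 3 pairs made likely. Fewer kept their calls: 519 of the 560 were called again without pair 1, 285 without pair 2 and 244 without pair 3. Fits with 1 pair left out have 1 residual degree of freedom and rest mostly on the borrowed spread. Keeping or losing a call there thus reflects mainly the size of the remaining differences.

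**Figure D1:**
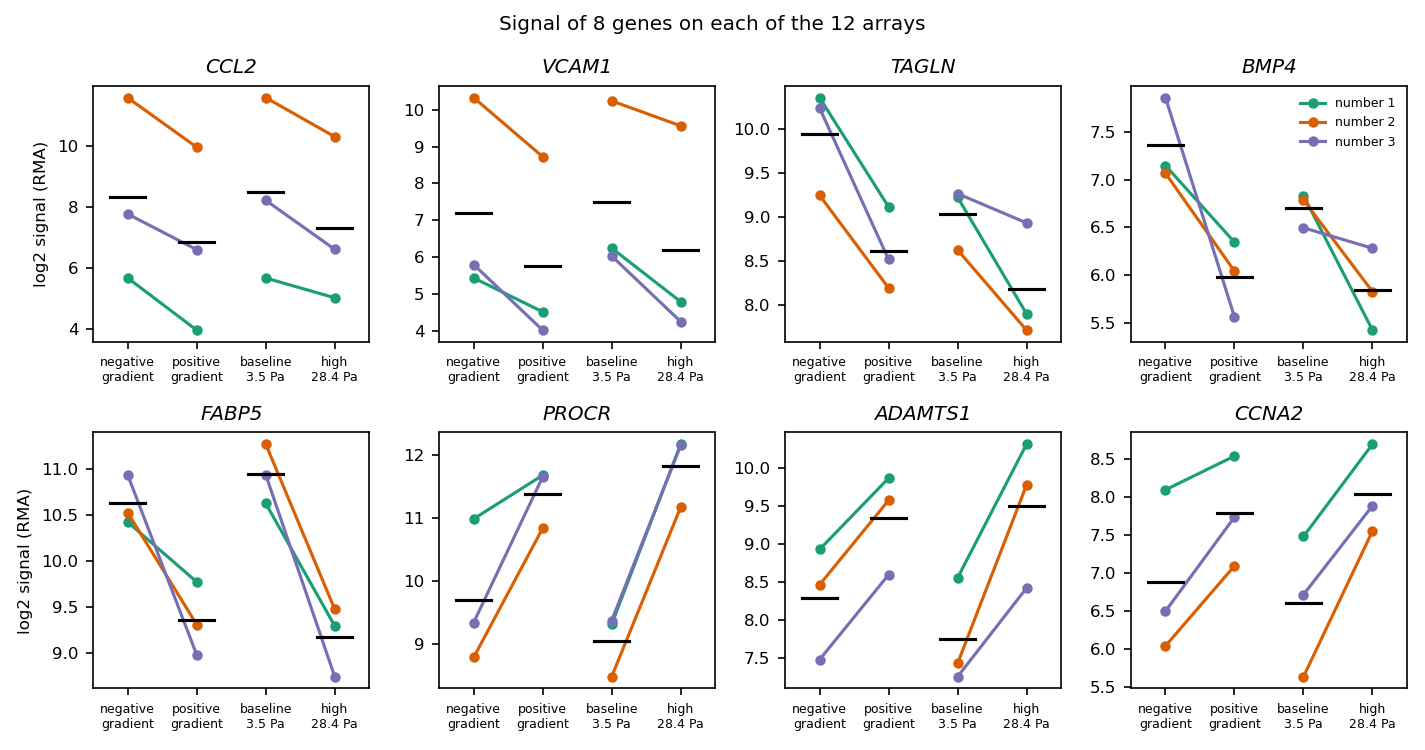
Log2 signal of 8 genes on each of the 12 arrays, by group (x axis); colours give the replicate number, lines join arrays of 1 number and black bars are group means. Within each number the first 5 genes lie lower, and the last 3 higher, under the positive than under the negative gradient.

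Several genes that recruit leukocytes had lower signals under the positive gradient. In the list of leukocyte recruitment and NF-kB genes, 26 of 27 measured members had a lower mean under the positive gradient, 11 were called lower and 0 higher (all named genes: 2067 of 3977 lower, 3.5% called lower). The median of the members' mean differences was −0.77, against −0.01 over all named genes. Within pairs 1, 2 and 3 the list median was smaller, at −0.24, −0.72 and −0.58. CCL2, the monocyte chemoattractant, read 5.67, 11.59 and 7.77 on negative gradient arrays 1, 2 and 3 and 3.96, 9.97 and 6.60 on positive gradient arrays 1, 2 and 3. The groups overlap, because the arrays numbered 2 were high and those numbered 1 low under both gradients, yet each positive array lay below its partner. The pair differences were −1.72, −1.63 and −1.17, a mean of −1.50 or 2.84-fold lower (SE 0.136, adjusted p = 0.000493; 0.0361 with all 12 arrays and the block). The second probe set of CCL2 was called at −1.28.

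CCL26, in humans an eotaxin that attracts eosinophils, read 10.54, 12.39 and 11.30 under the negative and 9.39, 10.30 and 9.03 under the positive gradient, so that the groups did not overlap (mean difference −1.84, SE 0.176, adjusted p = 0.000531). VCAM1, the adhesion molecule that leukocyte integrins bind, read 5.43, 10.33 and 5.80 (negative) and 4.51, 8.73 and 4.01 (positive). Here too array number 2 was far above the others in both groups, and all 3 pairs pointed down, at −0.92, −1.60 and −1.79 (mean −1.44, SE 0.155, adjusted p = 0.000899). CXCL5, a neutrophil chemokine, had the largest mean difference of all named genes by their brightest probe sets, −1.93. The pairs of CXCL5 spread widely, at −1.77, −0.52 and −3.51, and the adjusted p of 0.0116 became 0.543 when the variance model used a trend and robust estimation. The other measured adhesion molecules of the list were not called: ICAM1, which binds leukocyte integrins too, stood at −0.57 (adjusted p = 0.102), and the selectins SELP and SELE, which slow rolling leukocytes, at −0.11 (0.824) and −0.08 (0.874), with pair 1 of both selectins above 0.

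Among the growth factors of the list, CSF2 (granulocyte-macrophage colony-stimulating factor) differed by −1.07, −1.77 and −2.11 and CSF1, the macrophage factor, by −0.48, −1.57 and −1.40, with adjusted p-values of 0.000619 and 0.00549. TLR4, the endotoxin receptor, differed by −0.84, and NFKBIZ, a nuclear regulator of NF-kB targets, by −0.87. A second, dimmer probe set of NFKBIZ stood at 0.00 (adjusted p = 0.997). These 4 genes stayed called in all alternatives of the paired fit in which they were tested.

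The calls of 4 other members depended on single pairs. CCL5, a T-cell and monocyte chemokine, differed by −0.24, −1.93 and −2.04, and its call was lost without pair 2 and with trend and robust estimation. IL1A, the cytokine interleukin 1 alpha, also lost its call without pair 2 (−0.26, −1.57 and −1.00), and its second probe set stood at −0.68, not called. GRO1 and CXCL2, both neutrophil chemokines, lost theirs without pair 3 (−0.52, −0.52 and −1.42 and −1.07, −0.11 and −1.13). With pairs 1, 2 or 3 left out, 19, 9 and 14 members of the list were called lower.

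Of 13 leukocyte markers 1, CD14, was measured. This monocyte receptor read 4.47, 7.12 and 5.92 under the negative and 4.18, 5.52 and 4.22 under the positive gradient, and its difference of −1.20 was called (adjusted p = 0.00994). It was dim, with negative array 1 and all positive arrays below all array medians (5.65 to 5.71). CD14 moved with the recruitment genes, array by array highest at number 2, and its part in their result was not tested. In such bulk RNA, fewer cells of a type and less RNA per cell cannot be told apart.

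Interferon-induced genes were lower without exception in direction: all 15 measured members had a lower mean (median −0.33) and 3 were called. Among all named genes 2067 of 3977 were lower and 3.5% were called lower. IFI6, a mitochondrial protein of the interferon response, read 7.34, 8.59 and 7.78 (negative) and 6.82, 6.94 and 6.64 (positive), and the 3 positive arrays all lay below the 3 negative ones (difference −1.10, adjusted p = 0.00585). PSMB9, a subunit of the immunoproteasome, stood at −0.69 and XAF1, a pro-apoptotic interferon target, at −0.61. The calls of PSMB9 and XAF1 were lost without pair 2, which leaves 1 called member, and that of XAF1 also without pair 3. Like the recruitment genes, this list was highest on the arrays numbered 2 in all 4 groups of the study.

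**Figure D2:**
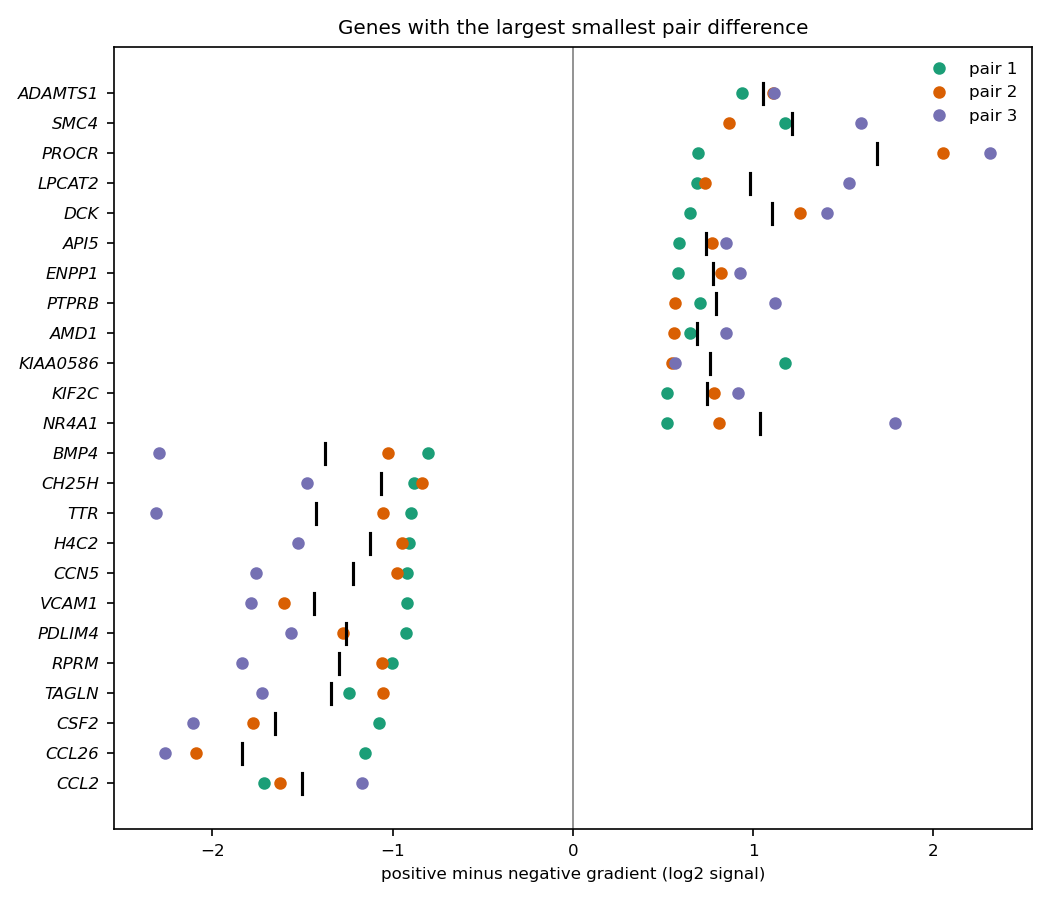
Positive minus negative gradient (log2 signal, x axis) in each pair for the 12 named genes at either end whose smallest pair difference was largest; points are pairs and black bars their means. Pair 3 has the largest difference for 22 of the 24 genes.

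Contractile genes differed in a few members rather than as a group. Of 29 measured genes of contraction and of the serum response factor, 18 were lower (median −0.14) and 3 were called, all lower. That is 10.3% called lower, against 3.5% of all named genes, of which 2067 of 3977 were lower. TAGLN, an actin-binding protein typical of smooth muscle, read 10.36, 9.25 and 10.24 on the negative and 9.12, 8.20 and 8.52 on the positive arrays, without overlap. It was 2.53-fold lower (difference −1.34, SE 0.142, adjusted p = 0.000899). PDLIM4, a PDZ and LIM protein of actin fibres, read 8.35, 9.17 and 8.71 (negative) and 7.42, 7.90 and 7.14 (positive), also without overlap (difference −1.26, adjusted p = 0.000899; 0.0361 with all 12 arrays and the block). PDLIM1, a related protein, stood at −0.78 and lost its call without pair 3. TAGLN is also 1 of the 2 measured smooth muscle markers; the other, SMTN, stood at 0.22 and was not called.

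In the list of TGF-beta and BMP signalling 2 of 19 measured members were called, both lower (10.5%, against 3.5% of the named genes). BMP4, a ligand that endothelium makes under disturbed flow and that promotes inflammation there, read 7.15, 7.07 and 7.86 under the negative and 6.35, 6.04 and 5.56 under the positive gradient. All 3 positive arrays lay below all negative ones, with pair differences of −0.80, −1.03 and −2.30 (adjusted p = 0.00567; 0.0921 with trend and robust estimation). FST, the secreted activin antagonist follistatin, differed by −0.15, −0.76 and −1.62 and was not called without pair 2 or without pair 3. The list's median was −0.09.

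Matrix genes were lower in 29 of 32 measured members (median −0.30), with 7 called lower and 1 higher. In 10 members the positive arrays all lay below the negative ones, against 10.2% of the named genes. COL12A1, a collagen that sits on fibrils, read 10.87, 11.47 and 11.71 (negative) and 10.20, 10.69 and 10.37 (positive; difference −0.93, adjusted p = 0.00567), and its second probe set was called at −0.90. THBS2, a matricellular thrombospondin, stood at −0.82 and TGFBI, an integrin-binding matrix protein induced by TGF-beta, at −0.77. These 3 were called in all alternatives of the paired fit.

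The calls of 4 other genes, the basement membrane collagen chain COL4A1 (−0.64), the microfibril protein FBN1 (−0.64), the lysyl oxidase family enzyme LOXL1 (−0.66) and the tenascin TNC (−0.61), were lost without pair 3, and that of TNC also without pair 2. Without pair 3, 3 matrix genes were called lower, against 11 without pair 1 and 8 without pair 2. SPP1, the secreted phosphoprotein osteopontin, went the other way (0.18, 1.30 and 0.96), and its call was lost without pair 2. CCN5, a secreted CCN protein that restrains smooth muscle growth, was not on the list; it differed by −0.92, −0.97 and −1.76 (adjusted p = 0.00221). The 5 measured fibroblast markers had a summed signal of 14.75 to 14.95 under the negative and 14.65 to 14.91 under the positive gradient, and 0 of them were called. This sum rests mostly on VIM and S100A4 (mean signals 13.60 and 13.51 over the 12 arrays), so it could hardly show a change in the others. VIM stood at −0.07, S100A4 at 0.02, COL3A1 at −0.44, COL1A2 at −0.29 and THY1 at 0.20.

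Among 22 matrix proteases and inhibitors, 2 were called higher and 3 lower. ADAMTS1, a secreted protease that cleaves proteoglycans, read 8.93, 8.47 and 7.48 (negative) and 9.87, 9.58 and 8.60 (positive). The groups overlapped, but the pairs hardly differed from each other, at 0.94, 1.11 and 1.12 (mean 1.05, or 2.08-fold higher, adjusted p = 0.00116). A dimmer probe set of ADAMTS1 stood at 0.49 and was not called. The other calls were for PLAT, tissue plasminogen activator (0.61), the gelatinase MMP9 (−0.88), the aggrecanase ADAMTS4 (−0.80) and the lysosomal cathepsin CTSL (−0.59), and all 4 calls were lost without pair 2. Those of PLAT, MMP9 and CTSL were also lost without pair 3.

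Growth-arrest genes and lipid carriers were lower in a few large steps. Of 12 measured genes of growth arrest and p53 targets 4 were called, all lower, although 5 others had higher means and the median was −0.07. RPRM, a p53-induced inhibitor of entry into mitosis, read 8.35, 9.92 and 8.69 (negative) and 7.35, 8.87 and 6.85 (positive; difference −1.30, adjusted p = 0.00142; 0.0437 with all 12 arrays and the block). GAS2, a cytoskeletal protein of arrested cells, differed by −1.69, −0.24 and −2.51, FBXO32, a ubiquitin ligase subunit, by −0.78, −0.80 and −1.98, and YPEL3, a small protein linked to arrest and senescence, by −0.59, −0.72 and −0.84. The 4 genes were called without any 1 pair, and GAS2 was not called with robust variance estimation.

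FABP4, a fatty acid carrier of endothelium and fat cells, read 9.29, 9.12 and 9.36 under the negative and 8.59, 7.48 and 7.57 under the positive gradient. The negative arrays had an SD of 0.13, and all positive arrays were lower (difference −1.37, adjusted p = 0.0022). FABP5, its close relative, read 10.42, 10.52 and 10.94 (negative) and 9.77, 9.30 and 8.97 (positive), again without overlap (difference −1.28, adjusted p = 0.00389; 0.162 with trend and robust estimation). They were the 2 called members of 14 measured genes of lipid transport and use (14.3%, against 6.34% of the named genes). Second probe sets of both genes were called too, at −1.00 and −1.26.

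Some further genes had large lower values. TTR, the carrier of thyroid hormone and of retinol-binding protein, read 7.19, 6.26 and 8.33 (negative) and 6.29, 5.20 and 6.02 (positive; difference −1.42, adjusted p = 0.00389). DHRS3, a retinaldehyde reductase, differed by −0.43, −1.73 and −1.52. CH25H, which makes 25-hydroxycholesterol, differed by −0.88, −0.84 and −1.47 in the 3 pairs, but its second probe set stood at −0.38 and was not called (adjusted p = 0.144). The core histone H4C2 differed by −0.91, −0.95 and −1.52. H4C2 was the only called one of 7 measured core histones.

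Of 13 measured vasoactive mediators 3 were called, all lower, where 3.5% of the named genes were called lower. Higher means were seen in 6 of the mediators, and the median was −0.05 (−0.23 to 0.10 with 1 pair left out). ADM, the vasodilator peptide adrenomedullin, differed by −0.62, −0.90 and −1.24 (adjusted p = 0.00521), and P2RY1, a purine receptor, by −0.75, −0.57 and −1.32 (adjusted p = 0.00818). The third was NPR2, a natriuretic peptide receptor (−0.51), not called without pair 2 or pair 3. NPR3, its relative from the list of flow-response genes, stood at −0.68 and lost its call without pair 2. In the list of angiogenesis, Notch and guidance 3 of 23 measured members were called lower and 1, FLT1, higher, with a median of −0.15. NR2F1, an orphan nuclear receptor, differed by −0.99, −0.50 and −1.61. CXCR4, the receptor of the chemokine CXCL12, stood at −0.90, and ROBO1, a receptor of Slit guidance cues, at −1.00, and the call of ROBO1 was lost without pair 2. ROBO1 was dim, with means of 4.12 (negative) and 3.12 (positive), below all array medians (5.65 to 5.71). CD93, a lectin-like glycoprotein of sprouting endothelium and no member of the list, stood at −1.04. NR2F1, CXCR4 and CD93 stayed called in all alternatives. EDN1, the vasoconstrictor endothelin, was not called at −0.35 (adjusted p = 0.224), with 3 lower pairs of −0.26, −0.20 and −0.58.

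**Figure D3:**
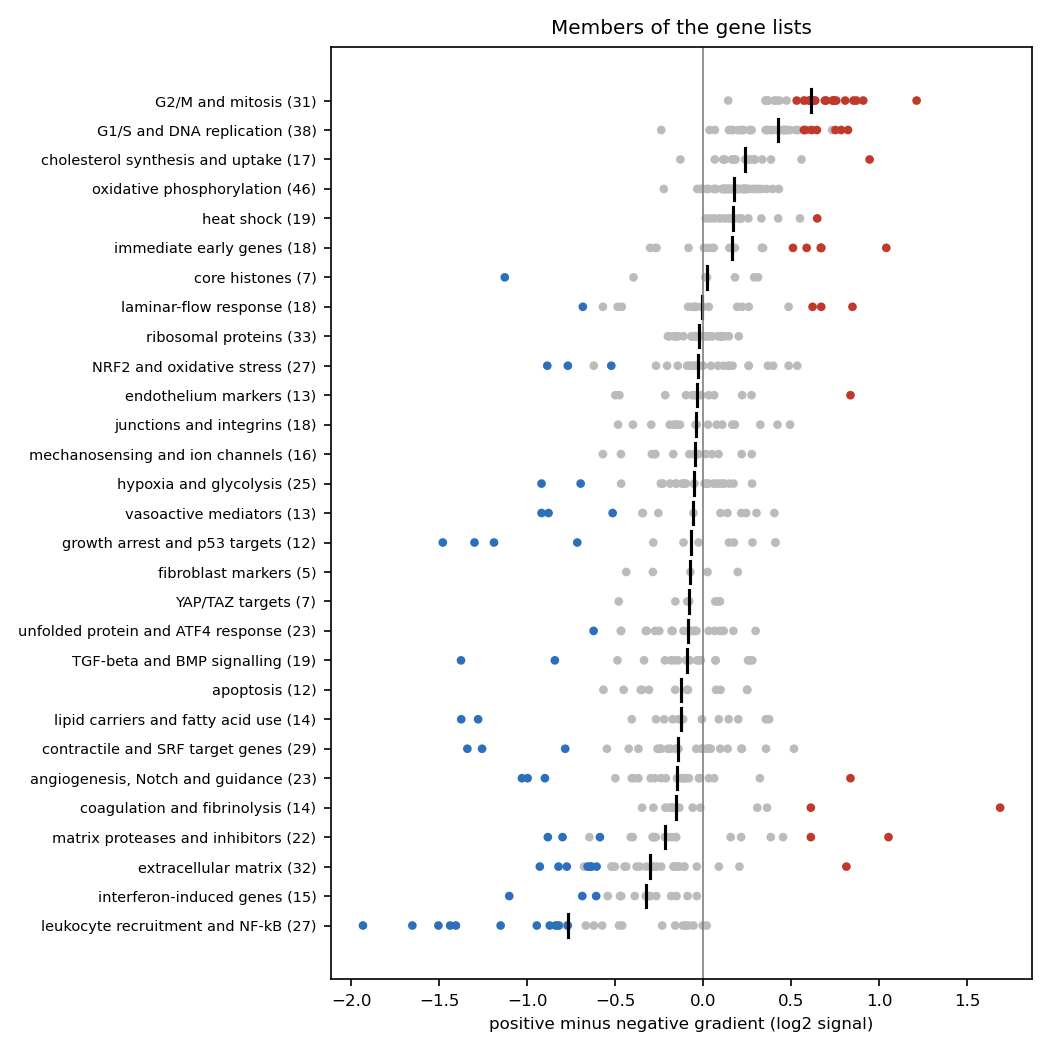
Positive minus negative gradient (log2 signal, x axis) for each measured member of the gene lists with 5 or more members (number in brackets); blue and red points are members called lower and higher in the paired fit, grey points the others, and black bars list medians. Medians run from −0.77 for leukocyte recruitment to 0.61 for mitosis.

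Genes of cell division were higher under the positive gradient. In the list of G2/M and mitosis all 31 measured members had a higher mean and 1 sign in all 3 pairs, against 23.6% of the named genes. Of these, 18 were called higher and 0 lower, and the median was 0.61. In the list of G1/S and DNA replication 37 of 38 had a higher mean, 7 were called, and the median was 0.42. The median differences in pairs 1, 2 and 3 were 0.27, 0.72 and 0.87 for G2/M and 0.07, 0.56 and 0.58 for G1/S.

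The size of the cell-cycle result depended on the pairs. Without pair 2, 6 G2/M genes and 0 G1/S genes were called; without pair 3 these counts were 8 and 5, and without pair 1 they were 26 and 21. The groups overlapped for every measured G2/M gene, and the mean level of the list was highest on array number 1 in all 4 groups of the study. The mean deviation of the G2/M list from its 12-array mean was 0.66, −0.86 and −0.58 on the negative and 0.94, −0.17 and 0.29 on the positive arrays.

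CCNA2, the cyclin of S phase and G2, read 8.09, 6.04 and 6.50 under the negative and 8.53, 7.09 and 7.73 under the positive gradient. Each positive array was above its partner, by 0.44, 1.05 and 1.24 (mean 0.91, SE 0.15, adjusted p = 0.00782). SMC4, a subunit of condensin, which compacts chromosomes, read 7.95, 6.53 and 6.29 (negative) and 9.13, 7.39 and 7.89 (positive), and its mean difference of 1.21 was the largest of the list by brightest probe sets (adjusted p = 0.00135). One of its 2 other probe sets was called at 1.08, and the other stood at 0.36, not called.

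CDK1, the mitotic kinase, differed by 0.35, 0.87 and 1.39, the checkpoint kinase BUB1 by 0.48, 1.11 and 0.98 and KIF2C, a kinesin that depolymerizes microtubules at centromeres, by 0.52, 0.78 and 0.92. These genes were called in all alternatives of the paired fit, although the second probe set of KIF2C stood at 0.34 and was not called. In the replication list RFC4, a subunit of the clamp loader, stood at 0.82, the S-phase cyclin CCNE2 at 0.78, POLE2, a subunit of DNA polymerase epsilon, at 0.75, and RRM2, a subunit of ribonucleotide reductase, at 0.65. These 4 lost their calls without pair 2. DCK, the kinase that salvages deoxynucleosides and no member of the list, read 9.19, 8.70 and 8.84 (negative) and 9.84, 9.96 and 10.25 (positive), without overlap (difference 1.11, adjusted p = 0.0026). The chromatin regulators EZH2 (0.69) and UHRF1 (0.76), active in dividing cells, were also called, EZH2 not without pair 2 and UHRF1 not without pair 2 or pair 3.

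PROCR, the endothelial receptor that presents protein C for activation and so limits clotting, had the largest increase of the named genes by their brightest probe sets. A dimmer probe set of the spectrin gene SPTBN1 was called at 1.81, and its other dimmer ones stood at 1.19, called, and 0.17, not called. PROCR read 10.99, 8.79 and 9.34 under the negative and 11.68, 10.84 and 11.66 under the positive gradient, where negative array number 1 overlapped the positive arrays. The pair differences were 0.69, 2.05 and 2.32, a mean of 1.69 or 3.22-fold (SE 0.223, adjusted p = 0.00255; 0.364 with trend and robust estimation). PROCR and PLAT were the 2 called members of 14 measured genes of coagulation and fibrinolysis. THBD, thrombomodulin, the cofactor in the same pathway, differed by 0.00, −0.14 and −0.05 and was not called (adjusted p = 0.921).

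Of 18 measured immediate early genes 6 were called, all higher, and the median was 0.17. NR4A1, a nuclear receptor induced early by many stimuli, read 7.73, 7.53 and 6.75 (negative) and 8.25, 8.34 and 8.54 (positive), so that all positive arrays lay above all negative ones (difference 1.04, 2.06-fold, adjusted p = 0.0117). The others were the related receptor NR4A2 (0.59), the deadenylase NOCT (0.67), the phosphatase DUSP1 that inactivates MAP kinases (0.67), SPRY2, an inhibitor of receptor kinase signalling (0.67), and the TGF-beta-induced factor KLF10 (0.51). These 5 lost their calls without pair 2, NR4A2 and SPRY2 also without pair 3, and KLF10 without any 1 of the 3 pairs.

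Flow-response genes gave a mixed picture: 3 of 18 measured members were called higher, 1 lower, and the median was −0.01. KLF4, the flow-induced transcription factor, read 11.79, 10.54 and 11.14 (negative) and 12.02, 11.47 and 11.85 (positive). Its pair differences were all positive at 0.23, 0.93 and 0.71 (adjusted p = 0.036), and its call was lost without pair 2 or pair 3. AQP1, the water channel, stood at 0.85 (adjusted p = 0.0132) and lost its call without pair 2, and its second probe set stood at 0.31, not called (adjusted p = 0.306). NOS3, the endothelial nitric oxide synthase, differed by −0.20, 0.43 and 0.43; pair 1 opposed the others and the gene was not called (adjusted p = 0.591). FLT1, a receptor of vascular endothelial growth factor and the only called one of the 13 endothelial markers, read 6.53, 6.36 and 6.69 (negative) and 6.71, 7.18 and 8.19 (positive; difference 0.84, adjusted p = 0.0312), and lost its call without pair 2 or pair 3.

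Other called genes with higher signal included the signalling enzymes PTPRB, the endothelial phosphatase that acts on the angiopoietin receptor (0.80), PTPRR, a phosphatase of MAP kinases (1.14), and ENPP1, which makes pyrophosphate from extracellular ATP (0.78). LPCAT2, which remodels phospholipids, stood at 0.98 and AMD1, an enzyme of polyamine synthesis, at 0.69. These 5 were called in all alternatives. ACLY, which supplies acetyl-CoA for lipid synthesis, stood at 0.59 and lost its call without pair 2 or pair 3.

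NCEH1, a cholesterol ester hydrolase, stood at 0.95 by its brightest probe set and at 1.38 by another, which was also called with all 12 arrays and the block. Cholesterol genes were higher in 16 of 17 measured members (median 0.24), with NCEH1 the 1 called, and not without pair 2. All 19 measured heat shock genes were higher (median 0.17), and 12 of them had positive arrays that lay wholly above the negative ones, against 5.46% of the named genes. By brightest probe sets the co-chaperone DNAJB1 (0.65, adjusted p = 0.0304) was the 1 called, and not without pair 2 or pair 3. Its second probe set stood at 0.19 (adjusted p = 0.589). Dimmer probe sets of HSPH1 (1.14, adjusted p = 0.0106) and HSP90AA1 (0.53, adjusted p = 0.0463) were called higher too. Oxidative phosphorylation was higher in 42 of 46 members (median 0.18), with median pair differences of −0.01, 0.21 and 0.35. By brightest probe sets limma called 0 of the 46, with 6 at an unadjusted p under 0.05 and 2 called higher with trend and robust estimation. A dimmer probe set of UQCRB was called at 0.67 (adjusted p = 0.0132).

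Several lists showed few or no calls. For YAP/TAZ targets, junctions and integrins, mechanosensing and ion channels, apoptosis and ribosomal proteins limma called 0 of 7, 18, 16, 12 and 33 measured members in the paired fit. This does not show that they did not differ, and it holds for brightest probe sets only. Dimmer probe sets were called lower for CFLAR of the apoptosis list (−0.71 and −0.54) and for CAV1 (−1.01) and HAS2 (−0.74) of the mechanosensing list. At an unadjusted p under 0.05 the counts were 1, 6, 6, 4 and 0, and with trend and robust estimation 1, 3, 1, 1 and 0 were called. The medians of these lists lay between −0.13 and −0.02. The unfolded protein response had 1 of 23 called, lower (4.35%), near the 3.5% of named genes called lower. Hypoxia and glycolysis had 2 of 25 called (8%), both lower. Among them was BNIP3, an inducer of mitophagy, at −0.70, which was not called without pair 2 or pair 3. In the list of oxidative stress 3 of 27 were called lower, including NOX4, an oxidase that makes hydrogen peroxide (−0.77, not called without pair 3), and SELENOP, a selenium carrier (−0.89).

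**Figure D4:**
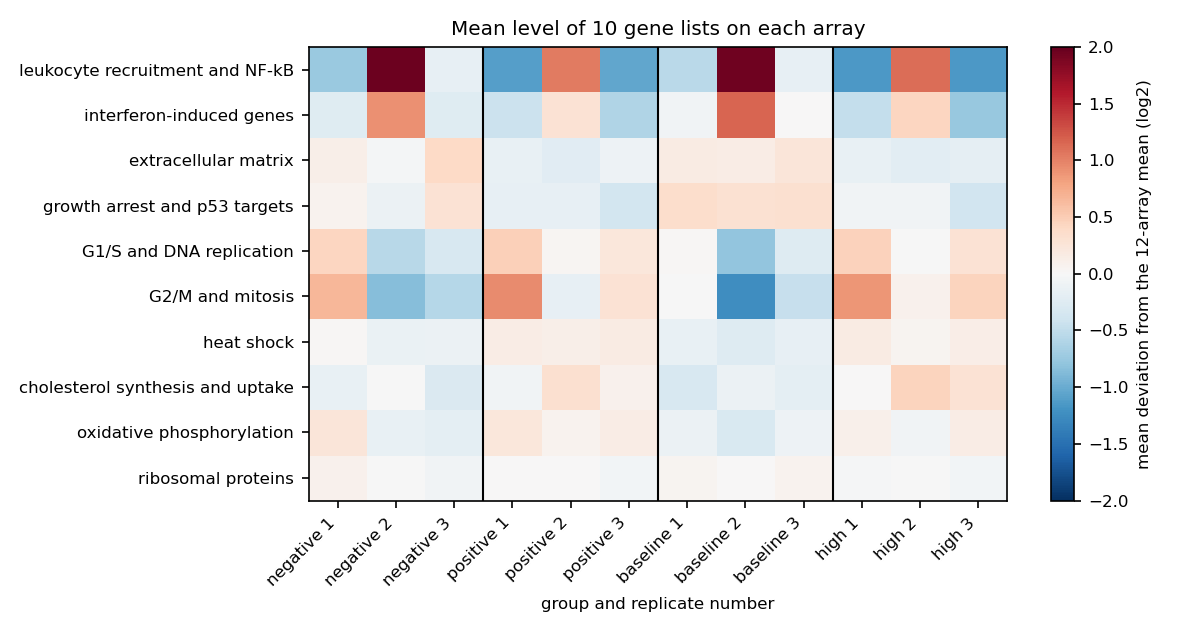
Mean deviation of 10 gene lists from their 12-array means (log2, colour) on each array, by group and replicate number (x axis). The recruitment list is highest on array 2 of each group, and within each number it is lower under the positive than under the negative gradient.

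The difference between the gradients was set beside that between the uniform flows, high minus baseline stress, which shares no array with it. Across the 24016 probe sets the differences correlated at r = 0.61, or 0.63 when the uniform pair holding High WSS replicate 3 was left out. This is a description across probe sets, which are not independent and share the arrays of each comparison. With probe sets split at their median signal and that pair included, r was 0.74 among the brighter and 0.33 among the dimmer ones. Of the 560 called probe sets 533, or 95.2%, had the same sign in the uniform flows, against 63.7% of all probe sets. Without that uniform pair the numbers were 546, 97.5% and 65.2%.

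A paired fit of the uniform flows called 244 probe sets (1.02%), and 160 probe sets were called in both comparisons, all with 1 sign. They are 28.6% of the 560 and 65.6% of the 244. Without the pair holding High WSS replicate 3, the uniform fit called 0 (3188 at an unadjusted p under 0.05), with 1 residual degree of freedom. Among the 560, the median size of the difference was 0.689 between the gradients and 0.871 between the uniform flows, or 0.846 without that pair. PROCR read 9.31, 8.48 and 9.37 at baseline and 12.18, 11.18 and 12.16 at high stress, a difference of 2.78 that was of like size in all pairs, against 1.69 between the gradients. CCNA2 differed by 1.21 and 1.91 in uniform pairs 1 and 2 and by 1.17 in pair 3, FABP4 by −1.99 and −2.42 and by −2.89, CSF2 by −2.37 and −1.70 and by −3.12, and VCAM1 by −1.46 and −0.68 and by −1.78. Each value has the sign seen between the gradients. TAGLN differed by −1.33 and −0.91 and by −0.33 and BMP4 by −1.41 and −0.96 and by −0.21, so that for these genes pair 3 moved least.

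Whether any gene differed by gradient otherwise than by uniform stress was tested as the difference of both differences. With 12 arrays limma called 0 of 24016 probe sets (640 at an unadjusted p under 0.05), and 0 with the block (1119). Without High WSS replicate 3 it also called 0 (611). Between the gradients themselves the fits of 12 arrays called only 0 probe sets without and 6 with the block. The absence of calls here therefore does not show that both differences were equal.

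**Figure D5:**
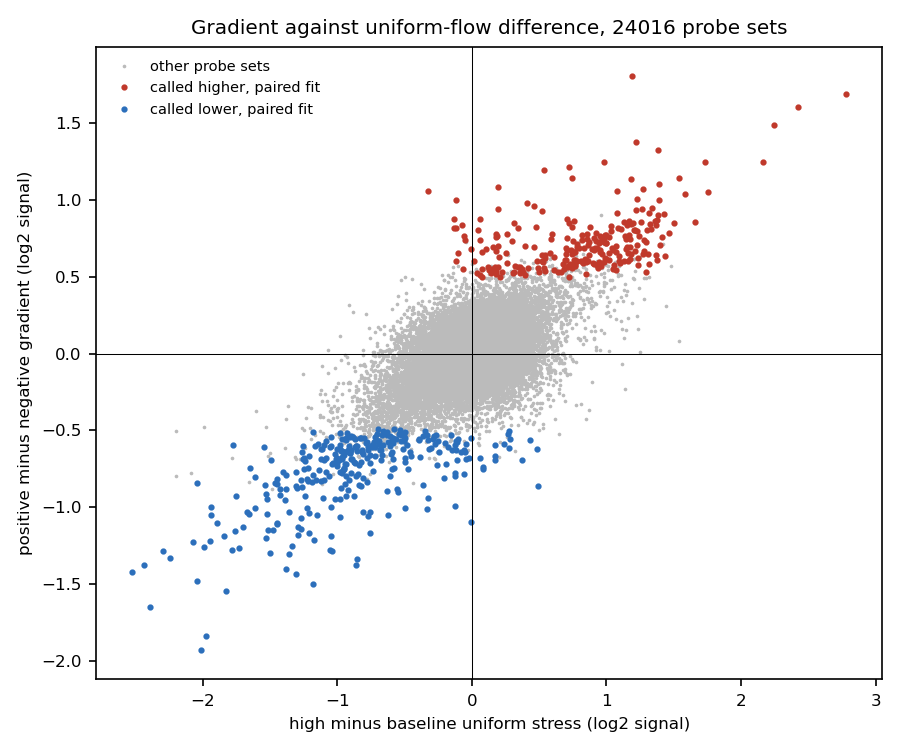
Positive minus negative gradient (y axis) against high minus baseline uniform stress (x axis), log2 signal, for all tested probe sets; red and blue points are the 560 called in the paired fit. Of these, 533 have the same sign on both axes, and 27 lie in the opposite quadrants.

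A few called genes had a mean difference near 0 between the uniform flows. APC, the adaptor that limits beta-catenin, read 4.83, 4.82 and 4.94 under the negative and 5.88, 5.20 and 6.51 under the positive gradient, without overlap (difference 1.00, adjusted p = 0.0106). APC was dim, with all negative arrays and positive array 2 below all array medians (5.65 to 5.71). Its uniform-flow arrays read 6.05, 6.10 and 6.07 at baseline and 6.26, 5.73 and 5.87 at high stress, a difference of −0.12 (0.21 and −0.36 in pairs 1 and 2). KIAA0586, a centrosomal protein needed for cilia, read 5.77, 4.88 and 5.18 (negative) and 6.95, 5.43 and 5.75 (positive; difference 0.76, adjusted p = 0.0146), with −0.06 between the uniform flows (0.30 and −0.13 in pairs 1 and 2).

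API5, an inhibitor of apoptosis, stood at 0.74 between the gradients and at 0.06 between the uniform flows (0.26 and 0.11 in pairs 1 and 2). For SMARCA5, the motor of ISWI chromatin remodellers, these values were 0.81 and 0.04 (−0.13 and −0.05 in pairs 1 and 2), and its call was lost without pair 3. For these 4 genes the difference of both differences was not called, at adjusted p-values of 1.00. That fit called no probe set at all, so this does not show that the gradient and uniform differences were equal. Of the 4 genes, APC, KIAA0586 and API5 kept their calls between the gradients in all alternatives of the paired fit in which they were tested.

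CALR, the calcium-binding chaperone calreticulin, read 10.81, 11.42 and 10.97 (negative) and 10.61, 10.64 and 10.09 (positive) and was called lower (−0.62, adjusted p = 0.0376), though not without pair 2 or pair 3. In the uniform flows it read 8.77, 9.91 and 8.58 at baseline and 9.11, 9.14 and 10.46 at high stress. The uniform difference of 0.48 had the opposite sign. The uniform pairs numbered 1 and 2 differed by 0.34 and −0.77, and number 3, which holds the array that stood apart, by 1.88.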

How the data were processed

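The authors deposited log2 values made with RMA (background correction, quantile normalization, probe set summary), per the submitters' processing notes, which name limma too. Tool versions were not given in the sources used here. All values were used unchanged, without 112 control probe sets. RMA sets all arrays to 1 distribution, so an overall shift in RNA would not show. The series matrix repeats 7194 of the full matrix's probe sets.

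Group means of 12 arrays were compared with limma 3.58.1 (R 4.3.3), with Benjamini-Hochberg adjustment over 24016 probe sets and calls at an adjusted p under 0.05. The fits with the replicate number as a block were alternatives. The pairing comes from the titles and was checked by the correlation of same-numbered arrays' deviations from their group means: 0.62, 0.53 and 0.35 for numbers 1, 2 and 3, all above 0.1. The fits were run on simulated data only to check that the mean of known changes was recovered. The rate of false calls was not judged, and the simulated pairs had equal spread, unlike the real ones. The number of arrays limits the precision.

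Symbols come from GEO's platform annotation, which can be old: of its 4770 probe sets 27 had several symbols, 19290 tested probe sets were unnamed, and 4715 Entrez numbers matched the RefSeq table (ARS-UCD2.0), with 0 symbols changed. A gene is represented by its brightest probe set. Genes were named if called without or with the block, if among the 12 at either end with 1 sign in all pairs and the largest smallest pair difference, if among the 10 smallest p-values without the block, if among the 4 largest differences of a list, if a marker, or if among 10 genes always given. All members and lists were chosen with earlier results of these data known, so lists are described by counts and medians and not tested. A planned motif search in promoters was not run.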

Additional observations from a re-analysis of the deposited data

Results flagged for a closer look

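ZNF207, a protein that helps chromosomes align in mitosis, was picked out because its 3 gradient pairs all pointed one way and its 3 uniform-flow pairs all pointed the other way. It read 9.17, 8.79 and 8.53 under the negative and 8.75, 8.33 and 7.72 under the positive gradient, a mean difference of −0.56 (adjusted p = 0.0352 in limma's paired fit, not called without pair 2 or pair 3). At baseline stress it read 7.49, 7.51 and 7.32 and at high stress 7.55, 7.55 and 8.51. The uniform pairs differed by 0.06, 0.05 and 1.19, the last of which holds High WSS replicate 3, the array nearest to positive gradient replicate 3. The difference of both differences was not called (limma adjusted p = 1.00), and no cause was tested.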

How the results depend on the processing

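Without a block, limma called 0 probe sets between the gradients under all settings tried, including without any 1 gradient array (697 to 2005 at an unadjusted p under 0.05). With the replicate block and 12 arrays it called 6, and 0 to 2 when 1 pair was left out. The paired fit of the 6 gradient arrays called 560. Among alternatives chosen after seeing the data, this fit called 1164 with a variance trend (560 shared), 1109 with trend and robust estimation (517 shared), 0 without sharing of variance, 6 with all 12 arrays and 49 with those but without High WSS replicate 3 (all 6 and all 49 shared). Leaving out 1 pair gave 286 to 1066, with 1 residual degree of freedom each. These fits borrowed 247 degrees of freedom without pair 1 and 13.6 without pair 2. Without pair 3 the borrowed number was infinite, so that all probe sets shared 1 variance. The 560 kept their sign in all of these alternatives. They were picked from the same pairs, and a change of variance model leaves the difference itself unchanged, so this is no separate support. Of 98 genes named as called, 45 stayed called in each of the 9 alternatives of the 6-array fit that share variance, where tested; 1, 35 and 30 were not called without pairs 1, 2 and 3. The difference between gradient and uniform effects was called for 0 probe sets under all settings tried, which does not show that the effects were equal. Over 18 settings per gene, with and without the block, 1799 of 1810 gene values kept the sign of the fit without a block. Several of these settings leave the difference itself unchanged. The 9 genes that changed sign when 1 array was left out, which breaks a pair, ranged as follows: CCL2 from −3.07 to 0.12, VCAM1 from −2.93 to 0.14, CCL5 from −2.92 to 0.37, CXCL2 from −2.74 to 0.87, IL1A from −2.15 to 0.57, THBD from −0.11 to 0.0075, ADAMTS4 from −1.32 to 0.066, MMP9 from −2.39 to 0.55 and NOS3 from −0.0063 to 0.54. List medians moved beyond the spread between pairs for 6 lists with 1 pair left out: −0.97 to −0.45 for leukocyte recruitment, −0.23 to 0.10 for vasoactive mediators, −0.16 to −0.057 for coagulation, −0.16 to −0.052 for the unfolded protein response, −0.082 to −0.030 for hypoxia and −0.23 to −0.096 for apoptosis. With the mean of a gene's probe sets, junctions moved from −0.040 to −0.14 and the unfolded protein response from −0.086 to −0.11. The causes were not tested.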

Other observations

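CYBRD1 and SCARA5, 2 genes linked to iron uptake, were called lower under the positive gradient. No list of iron genes was examined. CYBRD1, a ferric reductase at the cell surface, read 10.16, 10.18 and 10.74 under the negative and 9.57, 9.65 and 9.41 under the positive gradient, without overlap (difference −0.82, limma adjusted p = 0.0146 in the paired fit, not called without pair 3). SCARA5, a scavenger receptor that binds ferritin, differed by −1.65, −0.25 and −1.97 (adjusted p = 0.0117, and 0.217 with trend and robust estimation). PIK3IP1, an inhibitor of phosphoinositide 3-kinase, read 6.82, 6.54 and 7.06 against 6.30, 5.71 and 5.84 (difference −0.86, adjusted p = 0.00782), and was called in each alternative of the paired fit that shares variance and tested it. FKBP10, a collagen chaperone of the endoplasmic reticulum, was the most even of these, with pair differences of −0.51, −0.58 and −0.60 (adjusted p = 0.0263), though not called without pair 2 or pair 3. UAP1, which makes the sugar donor UDP-N-acetylglucosamine, stood at −0.79 between the gradients and at −0.06 between the uniform flows, High WSS replicate 3 included. GDAP2, a macro-domain protein, stood at −0.69 and −0.11 (uniform pairs of 0.14, 0.02 and −0.49, the last holding High WSS replicate 3). Both lost their calls without pair 3.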
